A study of Mus musculus with 4 samples.

Results

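The mouse miRNAs mmu-miR-99a-5p, mmu-miR-99b-5p, mmu-miR-100-5p, mmu-miR-125a-5p and mmu-miR-125b-5p, named below without the species prefix, were followed through macrophages of leukaemic and normal mice. These 5 were chosen by name from the 847 rows of a miRNA count table, and all 5 were found there. The miRNAs came from 4 small RNA libraries of sorted macrophages, 1 for each group, all from C57BL/6J mice aged 6 to 8 weeks. The AML bone marrow (BM) and AML spleen libraries are labelled day 18 after transfer of GFP+ MLL-AF9 leukaemia cells into mice that were not irradiated. MLL-AF9 is a fusion of a histone methyltransferase gene with AF9 that drives acute myeloid leukaemia (AML). The normal BM and normal spleen libraries are labelled only as normal, while the treatment text names a day 0. The sources used here give neither the markers of the sort, nor whether GFP+ cells were kept out, nor how many mice stand behind a library, nor whether a mouse gave both tissues. With 1 library a group, no difference has a replicate check, and every statement compares libraries rather than conditions.

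In animals, miR-125 is the counterpart of lin-4 of Caenorhabditis elegans, one of the founding miRNAs together with let-7. In mammals, genes of the miR-99/100, let-7 and miR-125 families lie together in clusters that are transcribed as long host RNAs, from which the hairpins are cut. A mature miRNA guides Argonaute to mRNAs mainly through its seed, so miRNAs with the same seed share many targets. The miR-99/100 family is known for repressing the mTOR kinase, and miR-125 for repressing Bak1 and other regulators of apoptosis. Forced expression of miR-125b causes leukaemia in mice, and in mouse macrophages miR-125b represses Irf4 and Tnf.

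The mature sequences show why the 5 miRNAs count as a pair of families, and they are written 5′ to 3′ with the seed, bases 2 to 8, in capitals (RefSeq, GRCm38.p6).
miR-99a-5p: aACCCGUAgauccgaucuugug
miR-100-5p: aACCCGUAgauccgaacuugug
miR-99b-5p: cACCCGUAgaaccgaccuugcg
miR-125a-5p: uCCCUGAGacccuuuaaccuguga
miR-125b-5p: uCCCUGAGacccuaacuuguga
miR-351-5p: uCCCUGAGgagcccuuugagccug
The first 3 share the seed ACCCGUA, and no other row of the table with a RefSeq sequence had it. The miR-125 seed CCCUGAG was also found in miR-351-5p, which is not a member and is shown for comparison. Counted from 1 at the 5′ end, miR-99a-5p and miR-100-5p differ by the single substitution U16A, outside the seed. From miR-99a-5p to miR-99b-5p there are 4 substitutions, A1C, U11A, U16C and U21C. For miR-125a-5p and miR-125b-5p the first 13 bases are identical, whereas miR-351-5p shares only the first 8 with either. The single-base difference means that a read with a mismatch could be counted as miR-99a-5p or as miR-100-5p, so their summed level is also given below.

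The members lie in 3 clusters of the mouse genome (GRCm38, positions from RefSeq and overlaps from GENCODE vM21). Mature miR-99a-5p lies at chr16:77598940-77598961 on the plus strand, in an intron of all 4 spanning transcripts of the non-coding host gene Mir99ahg. Its neighbour let-7c-1 follows 656 bases behind the Mir99a hairpin, and a copy of miR-125b-5p, Mir125b-2, lies at chr16:77646279-77646300 in an intron of the same host. Mature miR-100-5p lies at chr9:41531437-41531458 on the plus strand, in an intron of all 13 spanning transcripts of the non-coding gene 3110039I08Rik. There let-7a-2 follows after 5211 bases, and the other copy of miR-125b-5p, Mir125b-1, lies at chr9:41581940-41581961 in an intron of the same gene and in an exon of the sense-intronic transcript Gm28119. The third cluster is the most compact. Mature miR-99b-5p lies at chr17:17830194-17830215 in an intron of Spaca6, a protein-coding gene, and mature miR-125a-5p at chr17:17830817-17830840, only 623 bases further, with let-7e between them. In 1 of the 3 spanning Spaca6 transcripts miR-125a-5p falls in an exon. Because miR-125b-5p has copies in 2 clusters, its count cannot be assigned to either.

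The libraries held 271209 counts (AML BM), 180227 (AML spleen), 206652 (normal BM) and 435492 (normal spleen). Levels are counts per 1000000 (CPM) of a library scaled with TMM factors, and brackets give 95% exact intervals, which cover counting error only. A miRNA was called higher or lower where its larger count reached 30, its scaled counts differed at least 2-fold and the interval of their ratio left out 1. The myeloid miR-223-3p had 12 counts in AML BM, 4 in AML spleen, 10 in normal BM and 28 in normal spleen. The other arm, miR-223-5p, had 149, 10, 42 and 36 counts in the same libraries. By CPM the 3p arm was highest in normal spleen and the 5p arm in AML BM. The haematopoietic miR-142a-3p had 170, 253, 31 and 1704 counts in the same libraries. The level of miR-223-3p was low in every library, from 20.7 CPM (4 counts) in AML spleen to 71.4 CPM (28 counts) in normal spleen. None of these miRNAs is specific to macrophages, so the sorted cell type could not be checked from them.

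The most abundant member was miR-99a-5p, at rank 34 of all rows in AML BM, 43 in AML spleen, 29 in normal BM and 72 in normal spleen. It had 1753 counts in AML BM (6252 CPM) and 1434 counts in normal BM (6915 CPM). In the spleen it had 722 counts in the AML library (3742 CPM) and 508 counts in the normal library (1296 CPM). Normal spleen was thus the library with the least miR-99a-5p, and the other 3 lay within a factor of 2 of each other.

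For miR-100-5p the spread was wider, with 673 counts in AML BM (2400.1 CPM) and 807 counts in normal BM (3892 CPM). AML spleen had 585 counts (3032 CPM) and normal spleen 152 counts (388 CPM). Between its highest and lowest library miR-100-5p differed by 3.33 on the log2 scale, more than 90.3% of the 144 miRNAs that reached 30 counts in each of the 4 libraries. The median of these miRNAs was 1.55. The third of the family, miR-99b-5p, was scarce, with 126 counts in AML BM (449 CPM), 134 in normal BM (646 CPM), 113 in AML spleen (586 CPM) and 80 in normal spleen (204 CPM).

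The member that departed from that pattern was miR-125a-5p. The counts of miR-125a-5p were 497 in AML BM (1772 CPM) and 319 in normal BM (1538 CPM), but 93 in AML spleen (482 CPM) and 219 in normal spleen (559 CPM). Both spleen libraries were therefore low in miR-125a-5p. For miR-125b-5p the counts were 202 in AML BM (720.4 CPM), 158 in normal BM (762 CPM), 101 in AML spleen (523 CPM) and 113 in normal spleen (288 CPM). Normal spleen was the lowest library for 4 of the 5 members, miR-125a-5p being the exception. The same held for 38.9% of the 144 miRNAs.

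In AML BM the order of levels from high to low was miR-99a-5p, miR-100-5p, miR-125a-5p, miR-125b-5p and miR-99b-5p, and no neighbouring intervals overlapped. Normal BM had the same order, with miR-125b-5p and miR-99b-5p within counting error of each other. In AML spleen miR-99a-5p and miR-100-5p led, and the intervals of miR-99b-5p, miR-125b-5p and miR-125a-5p overlapped. In normal spleen miR-125a-5p stood second, ahead of miR-100-5p, and the intervals of miR-100-5p and miR-125b-5p and those of miR-125b-5p and miR-99b-5p overlapped. These orders compare CPM of mature miRNAs of 22 to 24 bases, with no correction for how well each sequence is captured in a small RNA library.

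**Figure D1:**
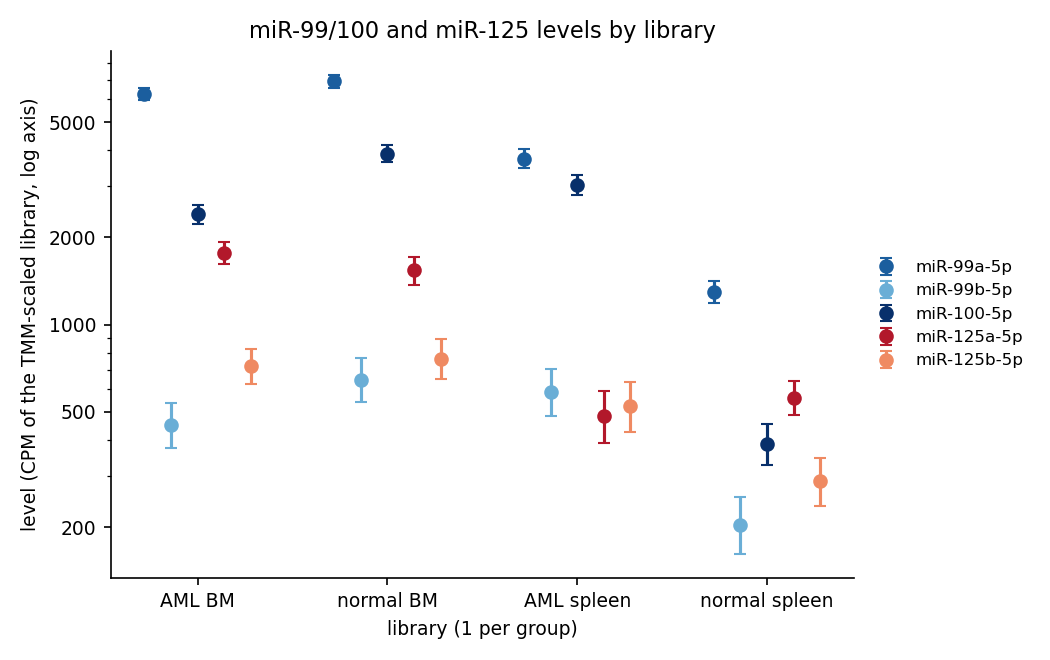
Level of each of the 5 miRNAs (CPM of the TMM-scaled library, log axis) in the 4 libraries, 1 point per library with bars for the 95% exact Poisson interval of its count. For miR-100-5p the normal spleen point, at 388 CPM, lies far below the other 3, at 2400.1 to 3892 CPM.

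In leukaemic spleen, the whole miR-99/100 family was higher than in normal spleen, while neither miR-125 member differed 2-fold. The 3 miR-99/100 members were called higher, against 25% of the 216 miRNAs compared (23.6% with DESeq2 size factors and 29.6% on total counts). Both miR-125 members were called neither way, and none of the 5 was called lower, against 21.3% of all (31.5% and 16.7% under those scalings). Either call was made for 46.3% of all. The median log2 ratio of the 5 was 1.52, beside -0.25 for all 216. In bulk RNA, fewer cells of a type and less RNA per cell cannot be told apart.

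The highest ratio belonged to miR-100-5p, which stood at 3032 CPM in AML spleen against 388 in normal spleen, 7.82-fold higher (log2 2.97 [2.71 to 3.23]). Of the miRNAs compared, 96.8% had a lower ratio. For miR-99a-5p the log2 ratio was 1.53 [1.36 to 1.70] and for miR-99b-5p 1.52 [1.10 to 1.95], so these members differed by nearly the same factor. Read together, miR-99a-5p and miR-100-5p had 1307 counts in AML spleen and 660 in the larger normal spleen library, a log2 ratio of 2.01 [1.87 to 2.15], so the call of the pair does not rest on how reads were split between them. The family sum was 7359.9 CPM in AML spleen against 1887 in normal spleen, or 1.96 [1.83 to 2.09] on the log2 scale.

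For miR-125b-5p the AML spleen value was higher by 0.86 [0.46 to 1.26] on the log2 scale, short of 2-fold, but it reached 1.11 on total counts. For miR-125a-5p the log2 ratio was -0.21 [-0.58 to 0.14], and its sign turned on total counts, to 0.04. The miR-125 sum was 1006 CPM in AML spleen against 847 in normal spleen, or 0.25 [-0.02 to 0.51] on the log2 scale. The seed relative miR-351-5p, with 20 counts in AML spleen and 79 in normal spleen, had a log2 ratio of -0.96 [-1.75 to -0.24], just short of 2-fold.

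The miRNAs that mark other cells moved with this comparison. All 4 stromal miRNAs compared were higher in AML spleen, and their list of 7 summed to 18291 CPM in AML spleen against 3094 in normal spleen. Both endothelial miRNAs were higher (3944 and 569 CPM), as were 3 of 3 muscle miRNAs (12222 and 2306 CPM) and 5 of 6 epithelial and liver miRNAs (15228 and 3798 CPM). Of 3 HOX-embedded miRNAs of blasts and progenitors 2 were higher and 1 lower (30787 and 7100.4 CPM). Of 5 lymphocyte miRNAs 4 were lower (46274 and 105930.0 CPM), and of 3 myeloid miRNAs 2 were lower (2488 and 7179 CPM). Of 2 erythroid miRNAs compared 1 was higher, miR-451a (1840 and 474 CPM), while the list of 4 summed to 8842 and 9388 CPM. No marker was at 0 in any library. The part of these cells in the miR-99/100 difference was not tested.

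In leukaemic BM, none of the 5 members differed 2-fold from normal BM. Of all 216 miRNAs compared, 13.4% were called higher and 12% lower (18.1% and 8.80% where the 10 most abundant miRNAs were left out of the totals), 25.5% in all. The largest difference was that of miR-100-5p, with a log2 ratio of -0.70 [-0.85 to -0.55] or 1.62-fold lower, followed by miR-99b-5p at -0.52 [-0.89 to -0.16]. For miR-99a-5p it was -0.15 [-0.25 to -0.04]. These 3 intervals lay below 0, so the libraries differed by more than counting error, though by less than the call asks. The log2 ratio of miR-125b-5p was -0.08 [-0.39 to 0.23] and that of miR-125a-5p 0.20 [-0.0013 to 0.41]. With the 10 most abundant left out of the totals, the signs of miR-99a-5p (0.05) and miR-125b-5p (0.12) turned. The family sums gave -0.33 [-0.41 to -0.25] for miR-99/100 and 0.12 [-0.05 to 0.29] for miR-125.

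Beside these values, 3 of 7 stromal miRNAs (17685 CPM in AML BM against 26291 in normal BM), 3 of 3 muscle miRNAs (10464 and 35530 CPM) and 2 of 7 epithelial and liver miRNAs (18292 and 28866 CPM) were lower in AML BM. Neither endothelial (4572 and 5946 CPM) nor any of 3 HOX-embedded miRNAs (32628 and 46741 CPM) was called. Of 3 myeloid (1797 and 723 CPM) and of 5 lymphocyte miRNAs (41754 and 16125 CPM), 2 each were higher. Of 3 erythroid miRNAs 1 was lower, miR-451a (1152 and 5126 CPM), and that list summed to 7664 and 9784 CPM. The part of these cells in the miR-99/100 values was not tested.

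**Figure D2:**
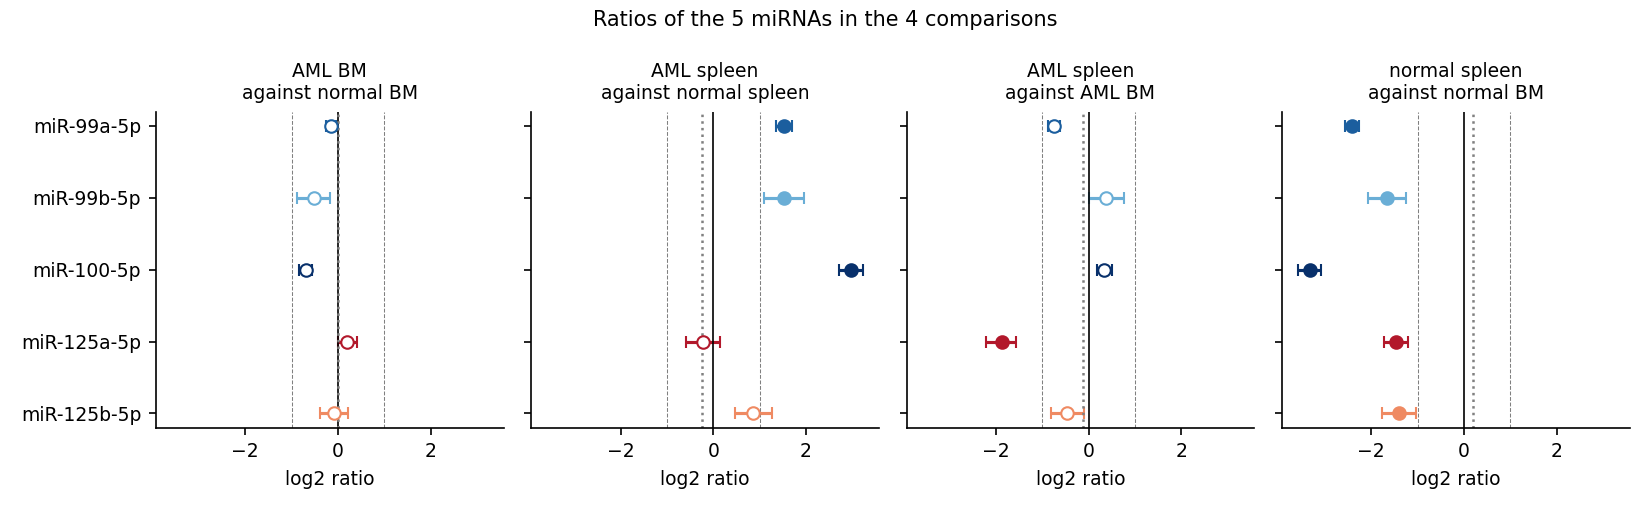
Log2 ratios of the 5 miRNAs in 4 comparisons, each panel giving the first library over the second, with bars for the 95% exact interval of counting error, filled points for calls, dashed lines at 2-fold and a dotted line at the median of all miRNAs compared. The miR-99/100 points lie at 1.52 to 2.97 in AML spleen against normal spleen and at -0.70 to -0.15 in AML BM against normal BM.

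The AML ratio of the spleen thus lay above that of the BM for the miR-99/100 members. For miR-100-5p the log2 gap, spleen minus BM, was 3.66 [3.37 to 3.96], a 12.7-fold difference between ratios. It was 2.05 [1.5 to 2.59] for miR-99b-5p and 1.68 [1.48 to 1.87] for miR-99a-5p. These 3 members were at least 2-fold above with an interval that excluded 0, as were 33.3% of the 144 miRNAs, while 29.9% were at least 2-fold below. The gap of miR-125b-5p was 0.94 [0.45 to 1.43] and that of miR-125a-5p -0.42 [-0.82 to -0.01]. All 5 members had AML ratios of opposite sign in the spleen and the BM, as did 75.7% of the 144 miRNAs, so this is common to most miRNAs compared. The 4 members other than miR-125a-5p were below 0 in BM and above 0 in spleen, as were 38.2% of the 144. Signs turned for miR-99a-5p and miR-125b-5p in BM and for miR-125a-5p in spleen under the scalings named above. These intervals treat counts as Poisson and hold no variation between mice.

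**Figure D3:**
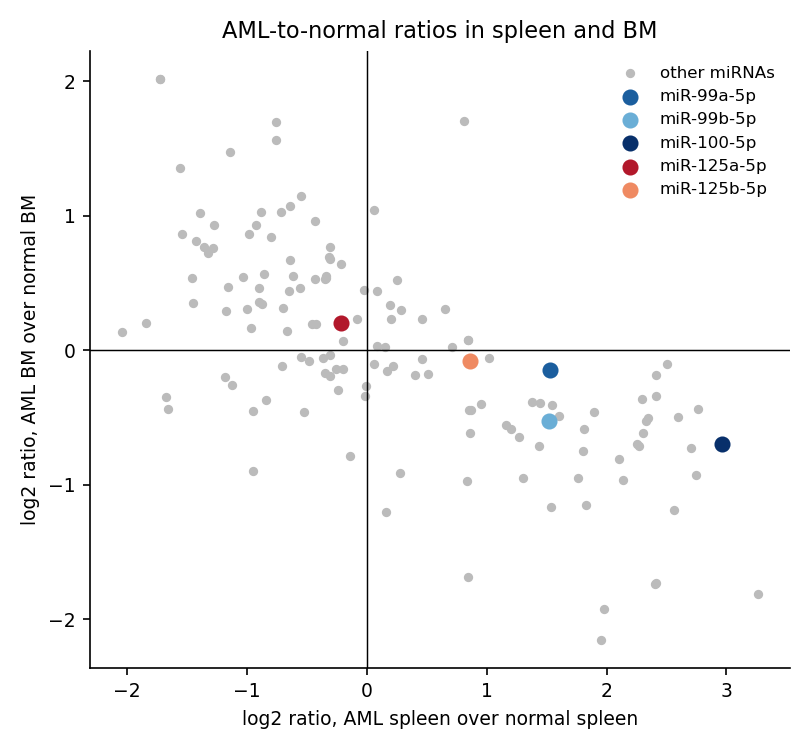
Log2 ratio of AML BM over normal BM against log2 ratio of AML spleen over normal spleen for the 144 miRNAs with 30 or more counts in each of 4 libraries, with the 5 members coloured. The 3 miR-99/100 members sit at the lower right, with miR-100-5p at 2.97 and -0.70, and miR-125a-5p sits near the origin.

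Between the leukaemic tissues, miR-125a-5p set itself apart from the other members. It stood at 482 CPM in AML spleen against 1772 CPM in AML BM, a log2 ratio of -1.88 [-2.21 to -1.56], or 3.68-fold lower. It was the only one of the 5 called, against 21.3% of the 211 miRNAs called lower, 13.7% called higher and 35.1% called either way. Only 7.11% of the miRNAs compared had a lower ratio. The other 4 had log2 ratios of -0.74 for miR-99a-5p, -0.46 for miR-125b-5p, 0.34 for miR-100-5p and 0.38 for miR-99b-5p. Its seed relative miR-351-5p was lower as well, with 20 counts in AML spleen and 178 in AML BM and a log2 ratio of -2.61 [-3.36 to -1.94]. The miR-125 sum was lower by a log2 ratio of -1.31 [-1.55 to -1.08] and the miR-99/100 sum by -0.31 [-0.40 to -0.21]. In this comparison none of 5 stromal, 2 endothelial or 6 epithelial and liver miRNAs was called, 1 of 3 muscle miRNAs was higher, and 3 of 5 lymphocyte miRNAs were higher and 1 lower. Of 3 myeloid miRNAs 1 was higher and 1 lower, and of 3 HOX-embedded miRNAs 1 was lower. Of 3 erythroid miRNAs 1 was lower, miR-144-3p (10.4 CPM in AML spleen against 128 in AML BM), from only 2 counts in AML spleen and 36 in AML BM. The erythroid list summed to 8842 CPM in AML spleen against 7664 in AML BM, and miR-451a stood at 1840 against 1152 CPM. The part of these cells in the miR-125a-5p difference was not tested.

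In normal mice all 5 members were lower in the spleen library than in the BM library, against 35.5% of the 234 miRNAs compared. Another 30.8% were higher, which makes 66.2% called either way. The median log2 ratio of the members was -1.66, beside 0.19 for all. The ratios of miR-100-5p and miR-99a-5p lay apart from each other and below those of the other 3 members, whose intervals overlapped. The ratio was -3.33 [-3.59 to -3.08] for miR-100-5p, which stood at 388 CPM in normal spleen against 3892 in normal BM, and -2.42 [-2.56 to -2.27] for miR-99a-5p. For miR-99b-5p it was -1.66 [-2.08 to -1.25], for miR-125a-5p -1.46 [-1.72 to -1.21] and for miR-125b-5p -1.40 [-1.76 to -1.05]. The family sums were 1887 CPM in normal spleen against 11453 in normal BM for miR-99/100, and 847 against 2300.2 CPM for miR-125. This comparison and that of AML spleen with normal spleen share the normal spleen library, so one low library enters both. Of the marker miRNAs, 7 of 7 stromal (3094 CPM in normal spleen against 26291 in normal BM), 2 of 2 endothelial (569 and 5946 CPM), 3 of 3 muscle (2306 and 35530 CPM), 6 of 7 epithelial and liver (3798 and 28866 CPM) and 3 of 3 HOX-embedded (7100.4 and 46741 CPM) were lower too. All 5 lymphocyte miRNAs were higher (105930.0 and 16125 CPM), and of 3 myeloid miRNAs 2 were higher and 1 lower (7179 and 723 CPM). Of 2 erythroid miRNAs compared, miR-486a-5p was higher (8839.8 and 4403 CPM) and miR-451a lower (474 and 5126 CPM). The part of these cells in the members' values was not tested.

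The only test across libraries that the design allows is an additive fit of AML and tissue, which leaves 1 residual degree of freedom. Where leukaemia goes with opposite shifts in the 2 tissues, this fit takes the opposition as noise. No member passed an adjusted p of 0.05 by edgeR's quasi-likelihood test for either effect, and 0% of the 246 miRNAs tested did. At an unadjusted p under 0.05 edgeR had 0 miRNAs for AML and 15 for tissue, none of them a member. At an adjusted p under 0.05 the DESeq2 Wald test called 0 for AML but 12 for tissue, again with no member. For the AML effect the log2 fold change was 1.13 for miR-100-5p and 0.69 for miR-99a-5p, each with an adjusted p of 0.998 from edgeR. For spleen against BM it was -1.67 for miR-125a-5p, -1.58 for miR-99a-5p and -1.49 for miR-100-5p, each with an adjusted p of 0.758 from edgeR.

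The makeup of each family varied between libraries, and shares within a library do not depend on scaling. Of the miR-99/100 counts, miR-100-5p took 41.2% [38.6% to 43.8%] in AML spleen and 20.5% [17.7% to 23.6%] in normal spleen. In the BM it took 26.4% [24.7% to 28.1%] in AML and 34.0% [32.1% to 35.9%] in normal mice. The share of miR-100-5p was thus higher in AML than in normal spleen and lower in AML than in normal BM, by more than the counting intervals. These shares rest on how reads were split between miR-99a-5p and miR-100-5p, which differ only by U16A. That split could not be checked. The share of miR-99b-5p ran from 4.94% in AML BM to 10.8% in normal spleen, and miR-99a-5p held the rest, at 68.7%, 50.8%, 60.4% and 68.6% in AML BM, AML spleen, normal BM and normal spleen. Of the miR-125 counts, miR-125a-5p took 71.1% [67.6% to 74.4%] in AML BM and 66.9% [62.5% to 71.1%] in normal BM. It took 47.9% [40.7% to 55.2%] in AML spleen against 66.0% [60.6% to 71.0%] in normal spleen. AML spleen was the one library in which miR-125a-5p did not exceed miR-125b-5p.

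**Figure D4:**
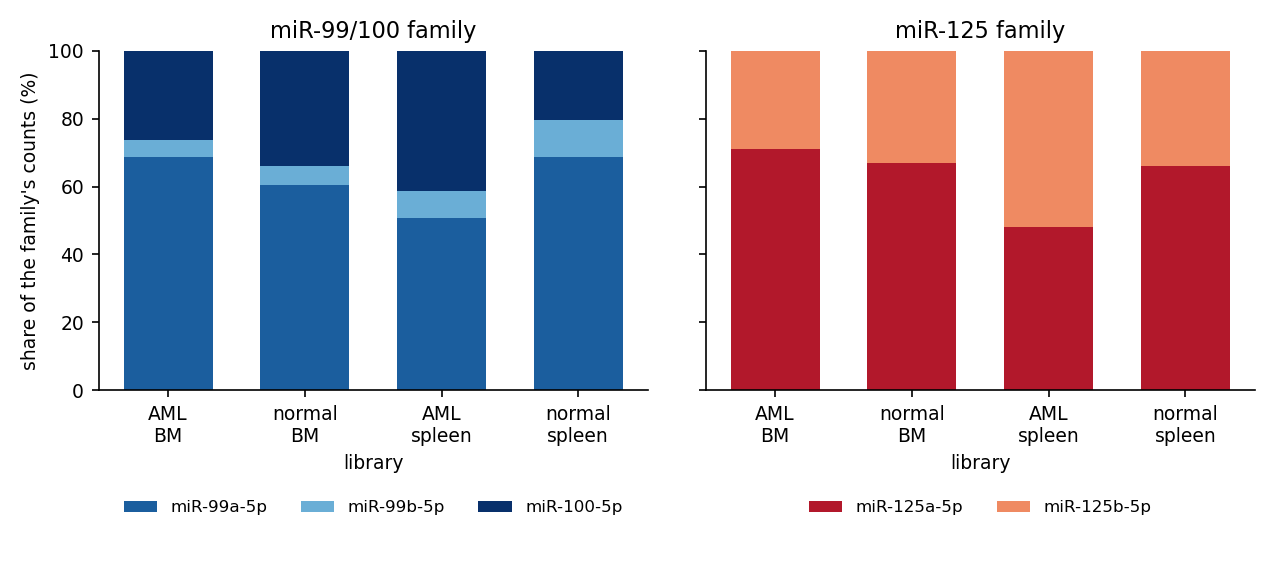
Share of the counts of each family (%) held by each member in the 4 libraries, as stacked bars from 0 to 100%. The miR-100-5p share reads 41.2% in AML spleen against 20.5% in normal spleen, and the miR-125a-5p share 47.9% against 66.0%.

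Not all members of the same cluster kept a fixed ratio to each other. In the Mir99b cluster, whose mature miRNAs have 1 listed locus each, there were 1.22 [0.915 to 1.62] counts of miR-99b-5p per count of miR-125a-5p in AML spleen. The ratio was 0.365 [0.279 to 0.474] in normal spleen, 0.254 [0.207 to 0.309] in AML BM and 0.420 [0.341 to 0.516] in normal BM. The AML spleen interval overlapped none of the other 3. The third miRNA of this cluster, let-7e-5p, had 64 counts in AML spleen and 50 in normal spleen. Its log2 ratio was 1.38 [0.82 to 1.94], close to the 1.52 of miR-99b-5p and unlike the -0.21 of miR-125a-5p. Per count of let-7e-5p there were 1.77 [1.29 to 2.44] of miR-99b-5p in AML spleen and 1.60 [1.11 to 2.33] in normal spleen. In AML BM there were 1.07 [0.824 to 1.38] and in normal BM 1.18 [0.909 to 1.52], and these intervals all overlapped. Of miR-125a-5p there were 1.45 [1.05 to 2.03] per count of let-7e-5p in AML spleen and 4.38 [3.21 to 6.08] in normal spleen. The BM values were 4.21 [3.44 to 5.19] in AML and 2.80 [2.25 to 3.50] in normal mice.

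In the other clusters the let-7 partner stood far above the miR-99/100 member. With TMM scaling, their log2 ratios had opposite signs only in the comparisons with normal spleen. In AML BM against normal BM the ratios were -0.15 for miR-99a-5p and -0.37 for let-7c-5p, and -0.70 for miR-100-5p and -0.26 for let-7a-5p. In AML spleen against AML BM they were, in this order, -0.74 and -0.43, and 0.34 and 0.09. There were 0.137 counts of miR-100-5p per count of let-7a-5p in AML BM, 0.163 in AML spleen and 0.186 in normal BM, but 0.00958 [0.00811 to 0.0112] in normal spleen. Likewise miR-99a-5p had 0.316, 0.255 and 0.271 counts per count of let-7c-5p in these 3 libraries and 0.0493 [0.0451 to 0.0539] in normal spleen. In AML spleen against normal spleen let-7a-5p was lower, at -1.13 [-1.18 to -1.07], and let-7c-5p had a log2 ratio of -0.84. Both let-7 sequences are also made outside these clusters, let-7c-5p from Mirlet7c-2 and let-7a-5p from Mirlet7a-1, so their counts do not measure the clusters alone. Per count of miR-125b-5p there were 5.79 [4.68 to 7.23] of miR-100-5p in AML spleen and 1.35 [1.05 to 1.73] in normal spleen, and 7.15 [5.80 to 8.89] and 4.50 [3.66 to 5.56] of miR-99a-5p. In AML BM and normal BM the values were 3.33 [2.84 to 3.92] and 5.11 [4.30 to 6.10] for miR-100-5p. For miR-99a-5p they were 8.68 [7.50 to 10.1] and 9.08 [7.70 to 10.8], both overlapping the AML spleen interval.

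**Figure D5:**
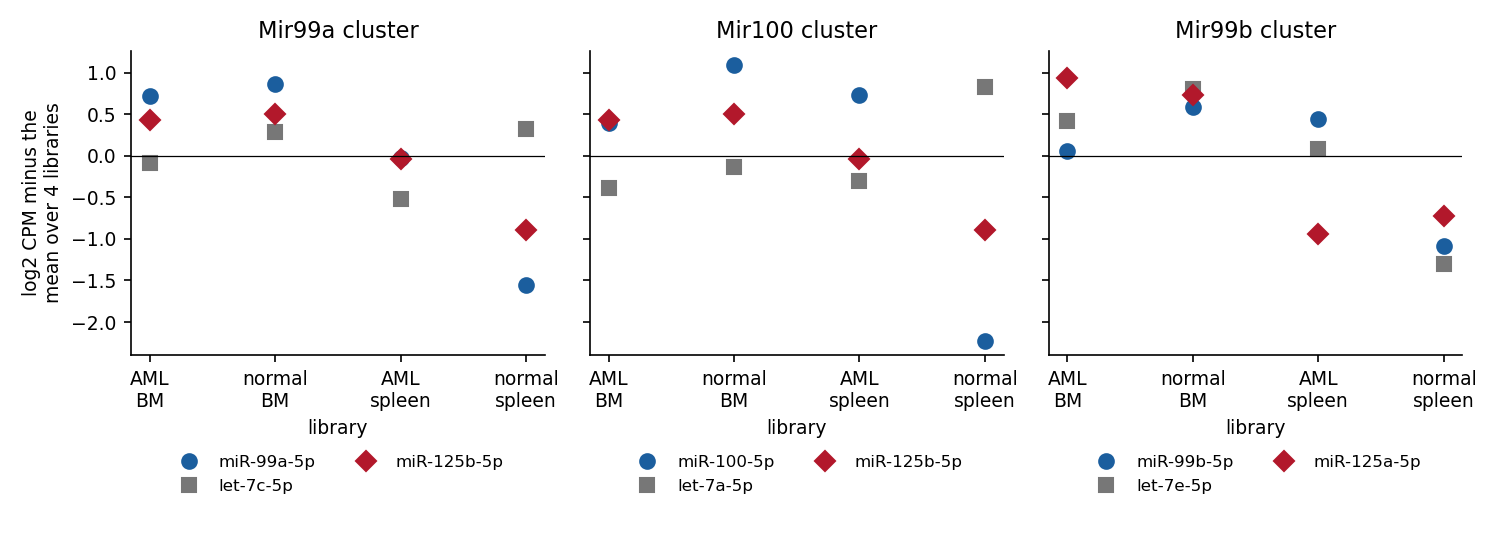
Log2 CPM of each miRNA minus its own mean over the 4 libraries, for the miR-99/100 member, the let-7 partner and the miR-125 member of the 3 clusters, 1 point per library (miR-125b-5p, encoded in 2 clusters, is drawn in both). In the Mir99b cluster miR-125a-5p stands at -0.94 in AML spleen and miR-99b-5p at 0.44.

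For the 4 members whose 3p arms were counted, most reads came from the 5p arm. The hairpins below, with both arms in capitals, show where the arms lie (RefSeq, GRCm38.p6).
Mir99a: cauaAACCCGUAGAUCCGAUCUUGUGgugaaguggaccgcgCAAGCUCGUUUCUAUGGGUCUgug
Mir100: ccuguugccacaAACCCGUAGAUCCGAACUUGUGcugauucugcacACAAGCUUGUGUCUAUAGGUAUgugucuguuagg
Mir125a: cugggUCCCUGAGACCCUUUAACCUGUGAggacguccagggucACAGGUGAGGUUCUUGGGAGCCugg
Mir125b-1: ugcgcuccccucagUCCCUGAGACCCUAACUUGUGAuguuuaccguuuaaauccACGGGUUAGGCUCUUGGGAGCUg
Over the 4 libraries miR-99a-3p had 2 counts beside 4417 of miR-99a-5p, or 0.0453%. For miR-125a-3p it was 10 counts beside 1128, or 0.879% [0.422% to 1.61%]. The 3p arms of both miR-125b hairpins together had 35 counts beside 574 of miR-125b-5p, or 5.75% [4.04% to 7.90%]. The 3p arm was least rare for miR-99b, with 51 counts beside 453, or 10.1% [7.63% to 13.1%]. By library the miR-99b-3p share was 12.5% [7.58% to 19.0%] in AML BM, 6.61% [2.90% to 12.6%] in AML spleen, 6.29% [2.92% to 11.6%] in normal BM and 16.7% [9.84% to 25.6%] in normal spleen, and all 4 intervals overlapped. Since miR-125b-1-3p and miR-125b-2-3p have different sequences, they tell the copies apart where the 5p arm does not. Their counts were 3 and 9 in AML BM, 4 and 4 in AML spleen, 8 and 4 in normal BM, and 1 and 2 in normal spleen, too few to compare the copies. The 3p arm of Mir100 had no row of its name among the counts, so it could not be analysed.

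Likeness of pattern was measured as the root mean square difference between log2 CPM centred on the mean of each miRNA, over 4 libraries, against 139 other miRNAs that reached 30 counts in each of them. Closest to miR-100-5p were miR-10b-5p (0.10), miR-199a-3p (0.15) and miR-143-3p (0.16), where the median over the 139 was 1.44. Closest to miR-99a-5p were miR-30b-5p (0.17), miR-10a-5p (0.20) and let-7e-5p (0.20), with a median of 1.04. For miR-99b-5p they were miR-23a-5p (0.10), miR-21a-5p (0.11) and miR-30c-5p (0.12), with a median of 0.84. For miR-125b-5p they were miR-374b-5p and miR-374c-3p (both 0.09, from rows with the same counts) and miR-27b-3p (0.20), with a median of 0.75. The pattern of miR-125a-5p had no such close match. Its nearest were miR-222-3p (0.32), miR-139-3p (0.33) and miR-92a-2-5p (0.42), with a median of 0.96. Among themselves the members had differences between 0.32 for miR-99b-5p and miR-125b-5p and 1.17 for miR-100-5p and miR-125a-5p. For each member at least 9 non-members were closer to it than its nearest fellow member. The closest non-members were picked from 139 candidates and the nearest fellow from far fewer. These values therefore cannot show whether members are less alike than other miRNAs. With 4 libraries that share a common scaling, such likeness is a description and has no test.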

How the data were processed

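Read counts per miRNA for 4 libraries were taken from the deposited table, in which the authors list 847 rows, 804 of them with names of known mouse miRNAs. TPM, as a further deposited column is called per the file headers, equals the count divided by its library total times 1000000 with no length term, and was used only for this check. How reads were aligned and counted, and with which build and annotation, is not stated in any label or header at hand. Total RNA was extracted with a column kit, per the labels' protocols.

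Groups came from sample titles, 1 library each. Library totals were scaled by TMM with edgeR 4.0.16 in R 4.3.3 (factors 1.03, 1.07, 1.00 and 0.900 for AML BM, AML spleen, normal BM and normal spleen). A level of 3 counts corresponded to 7.65 to 15.5 CPM. Ratios carry 95% exact conditional (Clopper-Pearson) intervals, shares exact binomial ones, and gaps of ratios a normal approximation on the log scale. The table has no molecular identifiers, and every interval covers counting error only. The additive fit took miRNAs that reached 30 counts in 1 or more libraries, with Benjamini-Hochberg adjustment, and DESeq2 1.42.0 was an alternative. Code was tested on simulated data.

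Named besides the members were their let-7 partners, their 3p arms, miR-351-5p and the 3 closest patterns of each member. The members, the marker lists and these rules were chosen with earlier results of these data known. Of the 847 rows, 673 had a RefSeq mature sequence of the same name, all 5 members among them. No other row matched the counts of a member within 3% or 2 counts in all libraries.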

Additional observations from a re-analysis of the deposited data

Results flagged for a closer look

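All 5 members had AML-to-normal ratios of opposite sign in the spleen and the BM, which marks them for a closer look. The log2 gap, spleen minus BM, was 1.68 for miR-99a-5p (1.53 in spleen and -0.15 in BM), 2.05 for miR-99b-5p (1.52 and -0.52) and 3.66 for miR-100-5p (2.97 and -0.70). It was -0.42 for miR-125a-5p (-0.21 and 0.20) and 0.94 for miR-125b-5p (0.86 and -0.08). Both ratios of miR-125a-5p and the BM ratio of miR-125b-5p had intervals that included 0. Under other scalings the signs turned for miR-99a-5p and miR-125b-5p in BM and for miR-125a-5p in spleen, so their opposition of sign depends on the scaling. With 1 library a group the difference between tissues was not tested across mice, and the intervals given with these gaps cover counting error only. The same opposition of sign was seen for 75.7% of the 144 miRNAs compared. The summed level of the stromal markers moved alongside, at 18291 CPM in AML spleen against 3094 CPM in normal spleen and 17685 CPM in AML BM against 26291 CPM in normal BM. The endothelial, muscle, epithelial and liver, and HOX-embedded lists also summed higher in AML than in normal spleen and lower in AML than in normal BM. The lymphocyte and myeloid lists went the other way in both tissues, and the erythroid list summed lower in AML in both. The part of these markers in the gaps was not tested.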

How the results depend on the processing

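Scalings, count minimums of 1 and 100, a 1.5-fold call and leaving out predicted rows were tried, and the gaps of ratios were rescaled as alternatives chosen after seeing the data. Of 209 single values under these alternatives, 200 kept their sign and their call. This share overstates stability, because part of the values could not change. In the comparisons of libraries, the count minimums could not alter a member's ratio or call, since its larger count always exceeded 100. The 1.5-fold call could not change a sign, and values of the additive fit were judged by sign only. The number of members called was 5 in normal spleen against normal BM under every alternative, and 3 or 4 in AML spleen against normal spleen. At 1.5-fold it was 1 in AML BM against normal BM (miR-100-5p) instead of 0, and 2 in AML spleen against AML BM (miR-99a-5p besides miR-125a-5p) instead of 1. Signs turned for miR-99a-5p (0.051) and miR-125b-5p (0.12) in AML BM once the 10 most abundant miRNAs left the totals, and for miR-125a-5p on total counts, at 0.037 in AML spleen and 0.14 in the additive AML effect. On total counts miR-125b-5p passed 2-fold in AML spleen (1.11), and its gap did (1.15). These follow from shifts of all log2 ratios by up to 0.20 in the BM comparison and from -0.24 to 0.25 in the spleen comparison; between normal tissues they ran from -0.16 to 0.24. Over all miRNAs, the calls at the 30-count minimum were 29 higher and 26 lower of 216 in AML BM against normal BM, 54 higher and 46 lower of 216 in AML spleen against normal spleen, 29 higher and 45 lower of 211 in AML spleen against AML BM, and 83 lower of 234 in normal spleen against normal BM. Those that moved by over 1.5 times are given in this order of comparisons. A minimum of 1 count gave 55 higher and 64 lower of 643, 117 higher of 754, 74 higher of 658, and 159 lower of 755, so the compared sets grew by more than the calls. A minimum of 100 counts gave 15 higher and 9 lower of 131, 33 higher of 142, 16 higher and 21 lower of 138, and 47 lower of 150. A 1.5-fold call gave 48 higher and 48 lower in the first comparison, 77 lower in the second and 47 higher in the third. The counts of members called in the additive fits stayed at 0. No paired analysis was possible because each group holds 1 library and the labels give no replicate numbers. For the same reason no library could be left out. The lowest member count was 80, and the 3p arms were too shallow to compare.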
